A study of Mus musculus with 12 samples.

Results

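The vehicle-injected arm of a mouse study of zygotic microRNA injection was described here by itself: 6 RNA sequencing libraries of the hypothalamic paraventricular nucleus (PVN), PBS 7 to PBS 12, out of 12 in the series. They were chosen by their column names, which carry the group and replicate number of the labels. The other 6 libraries, from animals whose zygotes received a mixture of microRNA mimics, were not used. The animals were adult males of 18 to 20 weeks on a C57/Bl6:129S6/SvEvTac hybrid background. As zygotes they had been microinjected with 1X DPBS, a phosphate-buffered saline, so they stand for vehicle-injected and not for unmanipulated mice. All were carried by CD1 surrogate dams, weaned at day 28 into same-sex groups, kept on a light and dark cycle with free food, and killed under isoflurane, an inhaled anaesthetic. The PVN of each animal was punched with a hollow 1.0 mm needle from 2 successive slices of 300 µm, the first from -0.50 to -0.80 mm and the second to -1.10 mm relative to bregma. Such a punch takes in whatever lies under the needle, neurons, glia and vessels alike. The labels name neither the litter and dam of each animal nor the hour of collection.

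The PVN is the hypothalamic nucleus that turns nervous input into hormone release. Its magnocellular neurons make oxytocin and vasopressin and send them to the posterior pituitary, while parvocellular neurons release corticotropin-releasing hormone, thyrotropin-releasing hormone and somatostatin toward the anterior pituitary. Peptide hormones are made as precursors, packed into dense-core granules with granins and cut by prohormone convertases before release. The transcription factors Sim1, Arnt2, Otp and Pou3f2 are needed for these neurons to form.

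Values are RPKM, reads scaled to transcript length in kilobases and to library depth, so that levels of different genes can be set side by side per length. Depth, worked out from the smallest increments between low RPKM values, was 27.6 to 38.2 M reads per library (M is mega; mean 32 ± 3.57 M, SD, n = 6). A gene at about 1 RPKM rested on a median of 79.9 reads per library. Of 23260 genes in the table, 13333 had a mean of at least 1 RPKM, and 12772 were at 1 RPKM or more in every one of the 6 libraries. Pairs of libraries had Spearman correlations across genes of 0.977 to 0.994, which describes these libraries only, since genes are not independent replicates. The male label was matched: Xist, the RNA of the inactive X chromosome, was at a mean of 0.0924 RPKM (0.448 in PBS 10 and at most 0.0290 in the others) and the Y-linked helicase gene Ddx3y at 21.1 RPKM.

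The most abundant transcript among the measured genes was that of oxytocin. Genes of the mitochondrial chromosome have no row in the deposited values, so their levels are not known here. Oxt (mm9 chr2:130401909-130402724, plus strand) was at 1626 RPKM in PBS 7, 2613 in PBS 8, 3740.5 in PBS 9, 1714 in PBS 10, 3983 in PBS 11 and 2197 in PBS 12. It ranked first of all measured genes, with a mean of 2646 ± 1009.6 RPKM (SD, n = 6). Avp, the vasopressin gene next to it on the opposite strand (chr2:130406413-130408277), came at rank 5: its level was 372, 1071, 1116, 1048, 1564 and 1060.4 RPKM (order of libraries as before in every list of 6 values). Both were lowest in PBS 7 and highest in PBS 11, and the 6 libraries stood in the same order for both genes. Oxt exceeded Avp in 6 of 6 libraries, by 1.64 to 4.37-fold, with a mean difference of 1.38 ± 0.50 (SD, n = 6) on the log2(RPKM + 0.5) scale (exact sign-flip test, 2-sided, p = 0.03125, the smallest that 6 libraries allow, adjusted p = 0.0391 over 25 gene pairs). The pairs were chosen with earlier results of these data known, so p-values of pairs here and below are not independent evidence. Without PBS 7 and PBS 11 the Avp values lay between 1048 and 1116 RPKM. The coefficient of variation of Avp (SD divided by mean) fell from 0.37 to 0.027 without these 2 libraries.

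Because the pair stood in one order across libraries, the 250 bases before each gene's annotated start are shown (RefSeq, GRCm38.p6, a newer build than that of the table). Capitals mark CATAAA on either strand, a motif chosen after the sequences were seen. It occurred 27 bases before the Oxt start and 14 bases before the Avp start. Of 32851 promoter windows of the same length, 10.8% held it. Of the genes with a window 12.4% did, and 6 of the 41 neuropeptide genes with a window did. The match is a description of the sequence and not evidence of a bound factor.
Oxt, chr2:130575919-130576168, plus strand: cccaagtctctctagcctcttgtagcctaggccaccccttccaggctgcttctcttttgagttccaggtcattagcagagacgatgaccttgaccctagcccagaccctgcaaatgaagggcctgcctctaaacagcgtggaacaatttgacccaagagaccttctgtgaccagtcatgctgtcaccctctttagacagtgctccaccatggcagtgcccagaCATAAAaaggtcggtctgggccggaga
Avp, chr2:130582589-130582838, minus strand: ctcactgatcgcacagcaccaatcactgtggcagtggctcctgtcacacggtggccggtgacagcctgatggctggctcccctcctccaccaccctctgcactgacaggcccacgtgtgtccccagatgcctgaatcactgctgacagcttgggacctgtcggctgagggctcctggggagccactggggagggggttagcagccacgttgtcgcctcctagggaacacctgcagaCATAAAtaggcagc

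Behind Oxt the list of most abundant genes mixed secretory, glial, housekeeping and imprinted genes. The 10 most abundant genes held 4.04 ± 0.44% (SD, n = 6) of the summed RPKM and the 100 most abundant 15.9 ± 0.36%. Gnas, which encodes the stimulatory G protein alpha subunit, was second at 1372 ± 128 RPKM (SD, n = 6). Apoe, the lipid carrier made by astrocytes, was at 1045 ± 137 RPKM (SD, n = 6), and Cst3, the secreted protease inhibitor cystatin C, at 1025 ± 117 RPKM (SD, n = 6). The range of each of these 3 genes overlapped with that of Avp.

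The other genes among the first 20 included Cpe, the carboxypeptidase that trims peptide hormones (723 RPKM), Resp18, a granule protein of endocrine cells (677 RPKM), and Sparc and Sparcl1, secreted matrix-binding proteins (763 and 634 RPKM). Fth1, the ferritin heavy chain (725 RPKM), Aldoa of glycolysis (675 RPKM), the translation factor gene Eef1a1 (652 RPKM), the lysosomal precursor gene Psap (598 RPKM) and the chaperone gene Hsp90ab1 (542 RPKM) were also there. So was Uchl1, a deubiquitinase of neurons (527 RPKM). Counting Gnas, 4 of the 20 genes are known to be imprinted, a grouping made after the ranks were seen. The others, each with its lowest, median and highest library, were Nnat (651, 771 and 1129 RPKM), Nap1l5 (608, 739.8 and 795 RPKM) and Ndn (468, 535 and 587 RPKM).

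The third place was held by Mir5114, a microRNA precursor row of only 61 bases at 1052 ± 203 RPKM (SD, n = 6). It lies inside Scd2, a fatty acid desaturase gene whose own row was at 377 RPKM. Poly-A libraries do not select free microRNA, and the deposited values do not separate reads of the precursor from those of Scd2. The mature sequence, with the seed (bases 2 to 8) in capitals, is shown because this row takes a top rank by its name (RefSeq, GRCm38.p6, chr19:44303171-44303192, plus strand).
mmu-miR-5114: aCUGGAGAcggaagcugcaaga

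**Figure D1:**
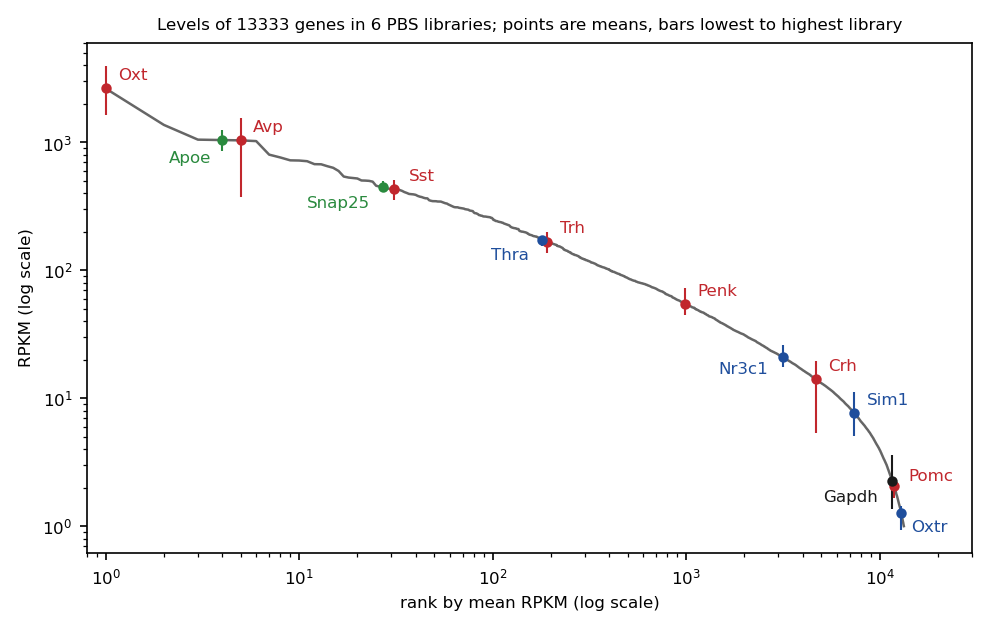
Mean RPKM against rank for the 13333 genes at a mean of at least 1 RPKM, both on log scales. Points are means of the 6 PBS libraries and bars run from the lowest to the highest library. Oxt stands first and Avp at rank 5, Crh lies near rank 4677 and Oxtr near rank 12905, and Gapdh is far down the curve at 2.26 RPKM.

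Of 52 neuropeptide genes examined, 32 reached a mean of 1 RPKM, 16 reached 10 RPKM and 5 reached 100 RPKM. After Oxt and Avp the next was Sst, somatostatin, the inhibitor of growth hormone release, at 355, 409.7 and 505 RPKM (values in threes are the lowest, median and highest library here and in what follows). Trh, which encodes thyrotropin-releasing hormone, was at 137, 166 and 200.3 RPKM, and Agt, the angiotensinogen gene of astrocytes, at 141, 155 and 169 RPKM. Sst was above Trh in all 6 libraries by 2.06 to 3.63-fold (exact sign-flip test, p = 0.03125, adjusted p = 0.0391 over the 25 pairs).

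Crh, the peptide that starts the hormonal stress response, was much lower. It ranked 4677th, at 5.32, 18.7, 14.7, 13.2, 19.6 and 13.0 RPKM (mean 14.1 ± 5.11 RPKM (SD, n = 6)). The value in PBS 7 was the lowest by far, and without it the coefficient of variation fell from 0.36 to 0.20. Trh exceeded Crh in 6 of 6 libraries by 8.33 to 30.8-fold and Avp exceeded it by 57.2 to 81.6-fold (adjusted exact p = 0.0391 for both). In a punch of mixed tissue a lower level can mean fewer cells of a type or less RNA per cell, and the 2 cannot be told apart here or in any result that follows.

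The opioid peptide genes came next. Penk, which encodes proenkephalin, was at 44.9, 52.2 and 73.4 RPKM, and Pdyn, prodynorphin, a peptide stored with vasopressin, at 14.2, 33.8, 30.9, 28.7, 40.5 and 25.05 RPKM. Penk was above Pdyn in all 6 libraries by 1.34 to 3.54-fold (adjusted exact p = 0.0391). Pdyn followed the libraries in the same order as Crh, lowest in PBS 7 and highest in PBS 11.

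Other peptides at 10 RPKM or more were Tac1, the substance P precursor (35.8 RPKM), Gal, galanin (29.4 RPKM), Cartpt, a feeding-related peptide (28.8 RPKM), Cck, cholecystokinin (25.3 RPKM), Ucn3, urocortin 3 of the perifornical area (21.3 RPKM), Adcyap1, the precursor of PACAP (20.0 RPKM), Nucb2, the nesfatin precursor (16.9 RPKM), and Pnoc, nociceptin (12.3 RPKM). Cartpt was among the steadiest, from 26.6 to 31.0 RPKM. Cck was among the most spread out, at 24.5, 10.1, 37.7, 60.4, 10.7 and 8.16 RPKM, with PBS 10 highest and PBS 12 lowest. Gal was at 49.1 RPKM in PBS 7 and between 22.3 and 26.9 RPKM elsewhere.

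Most of the peptides that mark neighbouring hypothalamic nuclei were low. Vip of the suprachiasmatic nucleus was at a mean of 0.307 RPKM, Agrp of the arcuate nucleus at 0.544, Kiss1 at 0.604, and Hcrt, the orexin gene of the lateral hypothalamus, at 0.165. Pomc, the arcuate melanocortin precursor, was at 1.67, 2.14 and 2.43 RPKM. Pmch, which marks lateral hypothalamic melanin-concentrating neurons, was at 1.18, 3.64, 0.904, 1.01, 2.11 and 0.928 RPKM, with PBS 8 highest. Npy and Ghrh, on the same list, were higher. Npy had a mean of 8.73 RPKM, with 20.1 RPKM in PBS 10, and Ghrh was at 8.13 RPKM in its highest library. Of the 11 genes on the list of suprachiasmatic, arcuate and lateral hypothalamic peptides, 6 reached a mean of 1 RPKM and none a mean of 10.

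**Figure D2:**
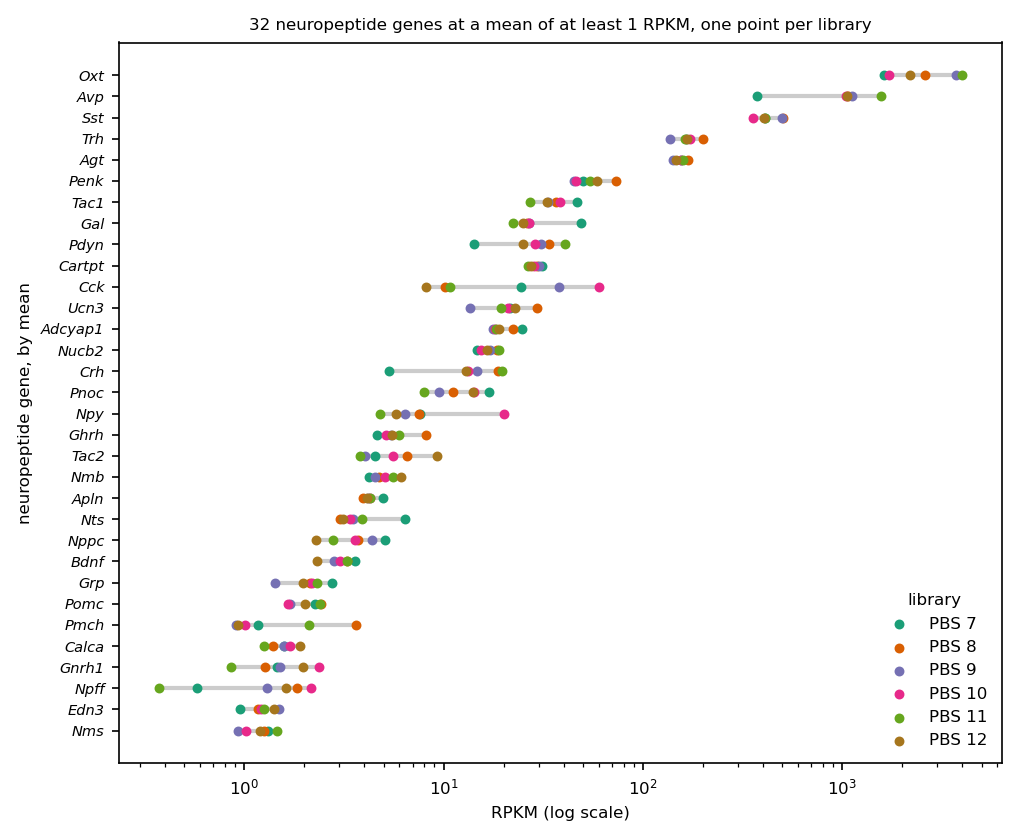
RPKM on a log scale for the 32 neuropeptide genes at a mean of at least 1 RPKM, 1 point per PBS library and genes ordered by mean. Avp, Pdyn and Crh each have PBS 7 as the lowest point, at 372, 14.2 and 5.32 RPKM, and Npy and Cck have PBS 10 as the highest, at 20.1 and 60.4 RPKM.

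The machinery that packs and cuts peptide hormones was present as a whole. All 18 granin and processing genes reached 1 RPKM, 14 reached 10 RPKM and 6 reached 100 RPKM. Scg2, secretogranin II, was at 368, 388 and 431 RPKM, Chgb, chromogranin B, at 87.2, 95.9 and 99.5 RPKM, and Scg5, the chaperone of convertase 2, at 169, 189 and 205 RPKM. The convertase gene Pcsk2 was at 57.6 RPKM and Pcsk1 at 31.4 RPKM. Pcsk2 was the higher in each of the 6 libraries, by 1.34 to 2.69-fold (adjusted exact p = 0.0391). The exception in steadiness was Pcsk1n, which encodes the convertase inhibitor proSAAS, at 249, 113, 253, 61.1, 216 and 124 RPKM. Its values were high in PBS 7, PBS 9 and PBS 11 and lower in the other 3. Pcsk1n and Caprin2 were the 2 members of the 18 with a coefficient of variation of at least 0.25, against 6.68% of all genes at 1 RPKM or more.

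Receptor genes were mostly low, with some exceptions. Of 70 peptide and growth factor receptor and binding protein genes, 55 reached 1 RPKM, with a median of 2.95 RPKM among those 55, and only 9 reached 10 RPKM. Ntrk2, the receptor of brain-derived neurotrophic factor, was the highest at 103, 114 and 134 RPKM. Adcyap1r1, the PACAP receptor, was at 76.6, 81.1 and 90.1 RPKM, and Ntsr2, a neurotensin receptor of astrocytes, at 72.0, 80.9 and 85.6 RPKM. Oprl1, the nociceptin receptor, was at 38.7, 42.5 and 48.8 RPKM. Levels of Adcyap1r1 and Oprl1 were above those of their ligand genes Adcyap1 (17.7 to 24.6 RPKM) and Pnoc (8.02 to 16.8 RPKM) in every library, which was not among the pairs tested.

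The receptor genes of oxytocin and vasopressin lay near the 1 RPKM limit or under it. The oxytocin receptor gene Oxtr was at 1.44, 1.36, 0.930, 1.28, 1.19 and 1.41 RPKM, and the vasopressin receptor gene Avpr1a at 1.52, 1.30, 1.21, 1.08, 2.15 and 1.26 RPKM. Their difference was 0.11 ± 0.31 (SD, n = 6) on the log2 scale, with ranges that overlapped (exact sign-flip test, p = 0.531). Avpr1b, the pituitary vasopressin receptor, was at a mean of 0.0199 RPKM and Avpr2, that of the kidney, at 0.0830.

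For corticotropin-releasing hormone, Crhr1 was at 1.14, 1.63 and 1.96 RPKM and Crhr2 at 1.78, 1.98, 1.69, 1.80, 1.35 and 3.61 RPKM, with PBS 12 highest. Crhr1 was below Crhr2 in 5 of 6 libraries and the difference did not pass the threshold (exact sign-flip test, p = 0.0938). The melanocortin receptor genes Mc4r, which act on feeding in this nucleus, and Mc3r were at 1.89 and 2.01 RPKM (exact p = 0.406). Npy1r, a neuropeptide Y receptor, was at 5.79, 7.32 and 7.58 RPKM and exceeded Npy5r by 2.76 to 3.57-fold in 6 of 6 libraries (adjusted exact p = 0.0391). Glp1r, the receptor of glucagon-like peptide, was at 4.51, 5.90 and 7.68 RPKM, Trhr, that of thyrotropin-releasing hormone, at 4.89, 5.24 and 7.87 RPKM, and Agtr1a, an angiotensin receptor, at 0.871, 2.26 and 3.07 RPKM. Lepr, the leptin receptor, was at a mean of 0.370 RPKM.

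Of 38 measured receptor genes for amines and acetylcholine, 28 reached 1 RPKM and 4 reached 10 RPKM. The 4 were Hrh3, a histamine autoreceptor (24.4 RPKM), Chrnb2, a nicotinic subunit (20.5 RPKM), and the serotonin receptor genes Htr2c (19.5 RPKM) and Htr7 (12.2 RPKM). Fast transmitter receptors were higher, with 42 of 44 genes at 1 RPKM and a median of 15.8 RPKM among the 42. Gabbr1, a metabotropic GABA receptor subunit, led at 148, 161 and 173 RPKM, and Gria1, an AMPA receptor subunit, was at 80.1, 90.1 and 95.9 RPKM. Gria2 was below Gria1 in 6 of 6 libraries, at 0.46 to 0.73 of its level (adjusted exact p = 0.0391).

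Both inhibitory and excitatory markers were present. Gad2 and Gad1, the enzymes that make GABA, were at 97.5 ± 20.1 RPKM (SD, n = 6) and 84.9 ± 25 RPKM (SD, n = 6). The vesicular GABA transporter gene Slc32a1 was at 56.1, 51.1, 35.1, 37.2, 47.6 and 74.1 RPKM, and Slc17a6, the glutamate transporter of hypothalamic and thalamic neurons, at 60.6, 42.7, 61.6, 52.7, 55.1 and 30.3 RPKM. Slc32a1 and Slc17a6 had means of 50.2 and 50.5 RPKM, with ranges that overlapped and a difference that changed sign between libraries (exact sign-flip test, p = 0.969). In PBS 12 Gad1, Gad2, Slc32a1 and Dlx1, a transcription factor of GABA neurons, were highest and Slc17a6 was lowest. Gad1 exceeded Slc17a6 in 5 of 6 libraries (exact p = 0.0625).

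Slc17a7, the glutamate transporter of cortical neurons, varied most. It was at 0.276, 0.414, 1.29, 19.3, 0.213 and 0.290 RPKM, so that PBS 10 was at least 15-fold above each other library. This was the highest coefficient of variation of any gene at 1 RPKM or more (2.12, and 0.90 without PBS 10). Of the 9 measured cortex and striatum genes, 7 reached 1 RPKM. Their summed level ran from 23.4 RPKM in PBS 11 to 49.9 RPKM in PBS 10, of which Slc17a7 made up 19.3 RPKM. Tbr1, another listed gene with a coefficient of variation of at least 0.5, was instead highest in PBS 7. It was at 3.72 RPKM there and at 2.72 RPKM in PBS 10. Neurod6, a factor of cortical projection neurons, was at a mean of 0.182 RPKM. PBS 10 was also highest for Cck, for Npy (7.65, 7.55, 6.43, 20.1, 4.79 and 5.80 RPKM) and for Gabrd, an extrasynaptic GABA receptor subunit (0.672, 0.413, 1.89, 3.07, 0.243 and 0.189 RPKM). The part of tissue from outside the nucleus in these levels was not tested.

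Among dopamine, nitric oxide and histamine genes, Th, tyrosine hydroxylase, was at 19.3, 24.5 and 31.1 RPKM, Nos1, the neuronal nitric oxide synthase, at 14.5, 20.3 and 26.6 RPKM, and Hdc, which makes histamine, at 7.79, 8.83 and 10.5 RPKM. The serotonin enzyme gene Tph2 was at a mean of 0.245 RPKM, the acetylcholine enzyme gene Chat at 0.173 and the noradrenaline enzyme gene Dbh at 0.0468. Cell bodies of those 3 kinds lie mostly in other brain regions.

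The transcription factors of PVN development were still expressed in the adult punch, 6 of 7 at 1 RPKM or more. Arnt2, the partner of Sim1, was at 58.1, 62.3 and 68.5 RPKM. Otp was at 17.5, 22.9, 30.8, 15.9, 38.0 and 18.1 RPKM, Sim1 at 5.08, 8.18, 8.86, 6.56, 11.3 and 6.05 RPKM and Pou3f2, also called Brn2, at 7.67, 12.8, 12.4, 9.65, 16.4 and 10.04 RPKM. All 3 were highest in PBS 11, the library highest in Oxt, Avp, Pdyn and Crh. Sim1 and Pou3f2 were lowest in PBS 7, and Otp in PBS 10. Sim1 was below Otp in 6 of 6 libraries, at 0.29 to 0.41 of its level, and Arnt2 above Sim1 by 6.08 to 11.4-fold (adjusted exact p = 0.0391 for both).

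Among 42 nuclear receptor genes, 33 reached 1 RPKM. Thra, the thyroid hormone receptor alpha gene, was the highest at 156, 176 and 185 RPKM and exceeded Thrb by 27.8 to 37.1-fold. Nr3c1, the glucocorticoid receptor gene through which the adrenal steroid acts back on this nucleus, was at 17.6, 20.2 and 26.1 RPKM. It exceeded Nr3c2, the mineralocorticoid receptor gene, by 4.18 to 4.91-fold, a difference of 2.06 ± 0.078 (SD, n = 6) on the log2 scale and the smallest SD of the 25 pairs. The oestrogen receptor gene Esr1 was at 2.30, 2.45 and 3.02 RPKM and exceeded Esr2 in all 6 libraries (adjusted exact p = 0.0391 for each of these 3 pairs of receptors). Esr2, known for its expression in the PVN, was at a mean of 0.671 RPKM. Among 13 genes induced by glucocorticoids, 12 reached 1 RPKM: Tsc22d3 was at 22.6, 23.6 and 31.6 RPKM, Sgk1 at 4.79, 6.30 and 7.94 RPKM and Fkbp5, a chaperone that restrains the receptor, at 5.74, 6.26 and 6.81 RPKM.

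Markers of neurons and astrocytes were high, and the neuronal ones were also steady. All 18 neuronal genes were at 10 RPKM or more and 11 at 100 RPKM or more, with a median coefficient of variation of 0.075 against 0.098 for all genes at 1 RPKM or more. Snap25, a synaptic fusion protein, was at 420.3, 445 and 499 RPKM. All 18 astrocyte genes reached 1 RPKM and 8 reached 100 RPKM, with a median coefficient of variation of 0.11. Gfap, the astrocyte filament gene, was at 29.7, 42.1 and 56.4 RPKM, and exceeded Aqp4, the water channel of astrocyte endfeet, in 6 of 6 libraries, Aqp4 being at 0.32 to 0.70 of its level (adjusted exact p = 0.0391).

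The glutamate transporter gene Slc1a2 was below Slc1a3 in 6 of 6 libraries, at 0.47 to 0.55 of its level (adjusted exact p = 0.0391). This direction depended on how transcript rows were joined: with a gene's value as the sum over its rows, Slc1a2 was above Slc1a3 by 0.42 on the log2 scale, with the same p. The order of these 2 genes is therefore not settled by the deposited values.

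Genes of microglia, vessels and ependyma were measured as well. Of 18 microglial genes, 16 reached 1 RPKM, with a median of 10.8 RPKM among those 16. None had a coefficient of variation of at least 0.25, a count near the 6.68% of all genes at 1 RPKM or more. Of 15 endothelial genes 14 reached it, with the glucose transporter gene Slc2a1 highest (51.2 RPKM). Genes of ependyma, the ciliated lining of the third ventricle beside the PVN, included Rarres2 (88.2, 92.5 and 120.2 RPKM) and Foxj1, the master factor of motile cilia (18.7, 26.2 and 32.6 RPKM). Both are known in ependymal cells. Of 8 choroid plexus genes, 3 reached 1 RPKM, namely Clic6 (4.59, 5.17 and 7.19 RPKM), Folr1 (mean 1.18 RPKM) and Kl (mean 1.04 RPKM). Ttr, the dominant transcript of that tissue, was between 0.209 and 0.356 RPKM. Of 7 pituitary hormone and lineage genes only Lhb reached 1 RPKM (2.30 RPKM), with Gh at 0.0775 and Prl at 0.0304.

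Haemoglobin genes mark blood left in the tissue. The summed level of 9 blood genes ran from 52.2 RPKM in PBS 9 to 127 RPKM in PBS 11. The 5 members at 1 RPKM or more were all globin genes, which share near-identical copies, so their split between rows is uncertain.

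Against this background of levels, most genes differed little between the 6 animals. The median coefficient of variation of the 13333 genes was 0.098, while counting reads alone would give a median of 0.035. A coefficient of at least 0.5 was found for 179 genes, 1.34% of those at 1 RPKM or more, and a coefficient of at least 0.25 for 890, or 6.68%. Rows shorter than 200 bases, mostly microRNA and small nucleolar RNA rows, made up 86 of the 179 and 20 of the 30 most variable genes, although only 181 such rows reached 1 RPKM. Most of these 181, 134 rows, lie inside a longer gene. Their values rest on few reads, with a median of 12.4 per library for the microRNA rows at 1 RPKM or more. Of the longer rows, 93 passed 0.5, which is 0.71% of them, and the results below concern longer rows.

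The steadiest gene was Mapk8ip2, a neuronal scaffold of stress kinases, at 87.1, 87.5, 87.9, 86.6, 89.1 and 88.4 RPKM (coefficient of variation 0.010). Slc12a5, the neuronal chloride exporter that sets the sign of GABA responses, was also among the 10 steadiest, at 86.0, 88.9 and 90.6 RPKM. Of 17 reference genes used for quantitative PCR, 15 had coefficients under 0.25, among them Actb (256, 295 and 314 RPKM), Hprt (98.4, 116 and 121 RPKM) and Sdha (144, 161 and 171 RPKM).

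The 2 reference genes that did not were Gapdh and Ppia, both among the most abundant messages of most tissues. Here Gapdh was at 1.36, 2.35, 2.06, 2.66, 1.54 and 3.59 RPKM and Ppia at 1.06, 1.73, 1.73, 1.90, 1.38 and 2.77 RPKM. Among processed pseudogene transcripts of GENCODE M21, 169 matched Gapdh and 32 matched Ppia over at least 300 bases at 90% identity or more. No other of the 17 reference genes matched more than 8. Values of genes with many such copies are therefore uncertain in this table, and the part of the copies in these values was not tested. Cytosolic ribosomal protein genes, another family with many copies, had a median of 17.8 RPKM over the 84 of 88 at 1 RPKM or more. The highest of them was Rpl8 at 353.4 RPKM.

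**Figure D3:**
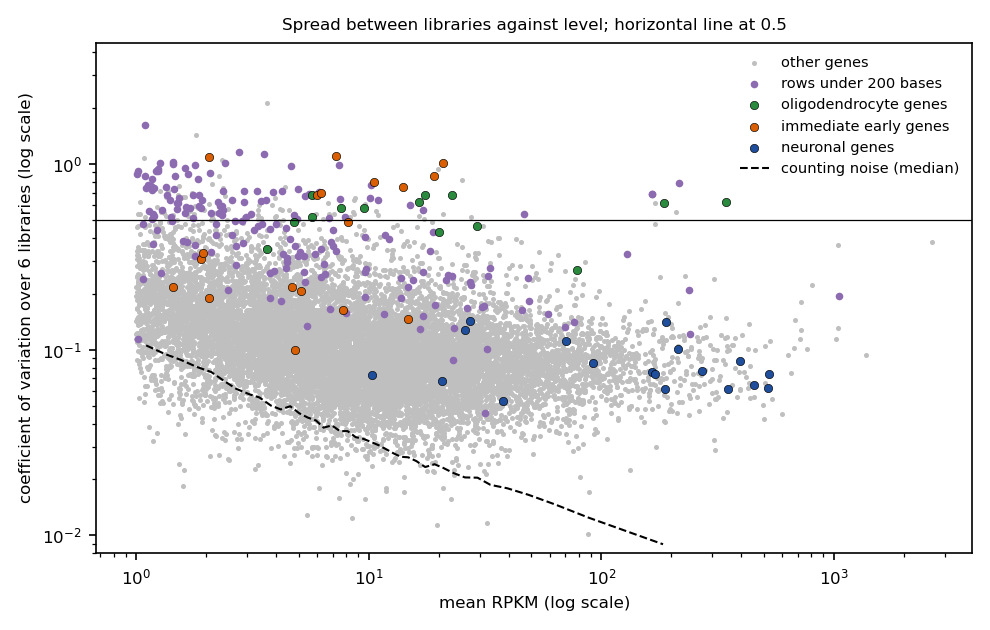
Coefficient of variation over the 6 PBS libraries against mean RPKM, both on log scales, for 13333 genes; the dashed line is the median expected from counting reads and the horizontal line marks 0.5. Neuronal genes lie at or below 0.14, while 9 of 14 oligodendrocyte genes and 8 of 18 immediate early genes lie above 0.5.

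Oligodendrocyte genes, which build and maintain myelin, stood out among the variable genes. Of 15 listed, 14 were measured, all at 1 RPKM or more, and all 14 were highest in PBS 7. Mbp, the major cytoplasmic myelin protein gene, was at 767, 295, 185, 313, 184 and 328 RPKM. Mobp, a myelin component, was at 41.0, 14.1, 9.64, 16.01, 8.76 and 15.6 RPKM, and Mog, on the outer face of myelin, at 20.1, 8.01, 5.82, 10.1, 4.83 and 8.43 RPKM. In each of these 3 genes PBS 7 stood apart and PBS 9 and PBS 11 were the 2 lowest.

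Among the 14 genes, 9 had a coefficient of variation of at least 0.5, against 1.34% of all genes, and 14 one of at least 0.25, against 6.68%. Without PBS 7 those counts were 0 and 4. In all 14 the gap between PBS 7 and the next library passed the 95% limit of Dixon for the gap as a share of the range, which 6.56% of all genes at 1 RPKM or more did in some library. Of the 8 listed precursor and lineage genes at 1 RPKM or more, 1 had a coefficient of variation of at least 0.25. This was Bcas1, a gene of newly formed and myelinating oligodendrocytes, at 36.7, 16.6, 11.4, 17.1, 12.6 and 18.2 RPKM. Pdgfra, the receptor that marks precursors, was at 14.3, 10.5, 10.2, 10.4, 11.4 and 9.98 RPKM, and Olig2, a lineage factor, at 9.69, 6.73, 6.26, 6.98, 6.73 and 7.37 RPKM. These 3 genes were again highest in PBS 7. The summed level of the 14 oligodendrocyte genes ran from 442 RPKM in PBS 11 to 1598 RPKM in PBS 7. The same library was lowest in Avp, Crh, Pdyn and Sim1. The part of myelinated tissue in those low values was not tested.

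Immediate early genes, which neurons transcribe within minutes of activity, were the second group. Fos was at 6.41, 57.3, 2.19, 19.6, 6.55 and 32.5 RPKM. Npas4, a factor induced by calcium entry into neurons, was at 0.748, 20.3, 1.60, 7.34, 0.745 and 12.4 RPKM. Egr1, a zinc finger factor, was at 7.83, 46.3, 3.95, 21.4, 6.76 and 28.3 RPKM. In all 3 genes PBS 8 was highest, followed by PBS 12 and then PBS 10, while PBS 7, PBS 9 and PBS 11 were low.

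The same order of the upper 3 libraries held for Junb (8.66, 32.5, 3.18, 11.6, 8.74 and 19.8 RPKM), Btg2, an antiproliferative gene (4.39, 24.3, 2.76, 11.7, 4.44 and 15.6 RPKM), Nr4a1, an orphan nuclear receptor (2.87, 13.1, 3.13, 6.20, 2.54 and 9.69 RPKM), Arc, a synaptic regulator (3.23, 12.5, 2.33, 6.55, 2.60 and 8.53 RPKM), and Fosb (0.386, 6.08, 0.444, 1.92, 0.437 and 3.10 RPKM). Of 18 immediate early genes at 1 RPKM or more, 8 had a coefficient of variation of at least 0.5 and 11 one of at least 0.25, and the first count was 8 or 9 with any 1 library left out. Jun, by contrast, stayed between 12.4 and 18.4 RPKM (coefficient of variation 0.15), and Homer1, whose short form is induced by activity, between 4.34 and 5.64 RPKM. Clock genes, which follow the hour of day, had no member of 16 at 0.25 or above, a count near the 6.68% of all genes. Dbp, an output gene of the clock, came nearest, at 37.1, 35.2, 29.4, 25.8, 20.4 and 22.6 RPKM.

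Since these genes moved together, the 250 bases before the start are shown for 4 of them (RefSeq, GRCm38.p6), with TGACG, the half-site of the cyclic AMP response element, in capitals on either strand. Of 32851 promoter windows of the same length, 17.8% held TGACG or its reverse complement CGTCA, and of the genes with a window 19.8% had it in at least 1. Of the 16 immediate early genes with a window 12 had it, of 41 neuropeptide genes 15, of 10 neuronal genes 2 and of 10 oligodendrocyte genes 0. The 12 included the 4 shown and also Homer1, which varied little between libraries. Arc and Egr1 had no window in the table. In Btg2 both orientations overlap as TGACGTCA.
Fos, chr12:85473640-85473889, plus strand: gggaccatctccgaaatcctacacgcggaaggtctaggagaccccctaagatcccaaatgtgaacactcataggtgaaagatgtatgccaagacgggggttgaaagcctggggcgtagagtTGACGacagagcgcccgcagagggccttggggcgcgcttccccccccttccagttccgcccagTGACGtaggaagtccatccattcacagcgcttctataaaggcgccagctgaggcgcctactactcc
Npas4, chr19:4989972-4990221, minus strand: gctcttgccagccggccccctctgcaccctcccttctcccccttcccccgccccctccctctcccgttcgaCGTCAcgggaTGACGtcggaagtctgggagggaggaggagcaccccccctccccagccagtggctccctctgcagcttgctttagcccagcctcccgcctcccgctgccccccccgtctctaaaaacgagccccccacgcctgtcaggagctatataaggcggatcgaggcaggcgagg
Fosb, chr7:19310046-19310295, minus strand: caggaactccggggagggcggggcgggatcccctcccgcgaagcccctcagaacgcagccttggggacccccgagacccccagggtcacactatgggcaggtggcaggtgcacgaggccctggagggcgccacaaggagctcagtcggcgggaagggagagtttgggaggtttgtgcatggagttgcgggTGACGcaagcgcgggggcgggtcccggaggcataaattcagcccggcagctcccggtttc
Btg2, chr1:134079156-134079405, minus strand: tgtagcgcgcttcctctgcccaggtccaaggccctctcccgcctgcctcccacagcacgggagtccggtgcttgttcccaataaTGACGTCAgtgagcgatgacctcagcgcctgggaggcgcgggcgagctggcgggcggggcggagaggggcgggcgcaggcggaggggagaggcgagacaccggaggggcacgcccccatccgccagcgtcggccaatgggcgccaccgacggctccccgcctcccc
A match of 5 letters is a description of the sequence, and no factor binding was measured.

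Nuclear noncoding RNAs were the third group. Meg3, an imprinted long RNA, was at 50.6, 158, 316, 190.0, 58.0 and 245 RPKM. Snhg11 was at 74.0, 214, 370.1, 235, 83.3 and 285 RPKM and Miat, a nuclear RNA of neurons, at 6.96, 21.5, 33.3, 23.9, 8.03 and 31.0 RPKM. The 6 libraries stood in the same order for these 3 RNAs, low in PBS 7 and PBS 11 and highest in PBS 9. Malat1, a nuclear speckle RNA that lacks a usual poly-A tail, was instead far above the rest in PBS 9, at 7.11, 9.83, 57.0, 15.04, 11.2 and 19.2 RPKM. Rian, a neighbour of Meg3 on chromosome 12, varied little (76.2, 88.6 and 104 RPKM). Low values in PBS 7 and PBS 11 were not particular to noncoding RNAs. Of the 93 longer rows with a coefficient of variation of at least 0.5, 32 (34.4%) were lowest in PBS 7 and 30 (32.3%) in PBS 11. For all genes at 1 RPKM or more these shares were 20.7% and 12.9%. The protein-coding gene Nxf1 placed the libraries in exactly the order of Meg3.

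Of 7 such RNAs at 1 RPKM or more, 5 had a coefficient of variation of at least 0.5. The count was 1 without PBS 7, 2 without PBS 11 and 1 without both. The 2 low libraries were also the ones whose deviations ran with transcript GC content in the negative direction: Spearman correlations across 12886 genes were -0.343 in PBS 7 and -0.488 in PBS 11, against 0.0223 to 0.415 in the other 4. Correlations with transcript length over the same genes were positive in PBS 7, PBS 9 and PBS 11 (0.119, 0.314 and 0.16). In PBS 8, PBS 10 and PBS 12 they were negative (-0.307, -0.102 and -0.366). All these correlations are across genes of one library and carry no test. PBS 8, PBS 10 and PBS 12 were also the libraries highest in Fos, Npas4 and Egr1 and lowest in Pcsk1n. The part of base composition or transcript length in the levels of these genes or of the noncoding RNAs was not tested.

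Another group marks the thalamus, which lies above the hypothalamus. Tcf7l2, a transcription factor of thalamic neurons, was at 18.9, 9.99, 28.1, 22.5, 15.5 and 4.19 RPKM. Gbx2, a factor of midline thalamus, was at 7.09, 2.27, 7.38, 5.37, 4.16 and 0.989 RPKM, and Ntng1, an axon guidance protein, at 15.2, 8.85, 21.2, 18.6, 13.4 and 5.16 RPKM. For each of these 3 genes PBS 12 was lowest and PBS 9 highest. Tnnt1, the listed gene with the highest coefficient of variation (1.05), differed. It was highest in PBS 10 (6.43 RPKM) and lowest in PBS 8 (0.324 RPKM), with PBS 12 at 0.380 RPKM. All 13 listed genes reached 1 RPKM, 9 with a coefficient of variation of at least 0.25 and 3 with one of at least 0.5. The latter count was 1 without PBS 12. The summed level of the 13 genes ran from 240.2 RPKM in PBS 12 to 404 RPKM in PBS 10, most of it from Calb2, the calretinin gene, which hypothalamic neurons also express (168, 211 and 259 RPKM). PBS 12 was also the library highest in Gad1 and lowest in Slc17a6. The part of thalamic tissue in those levels was not tested.

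**Figure D4:**
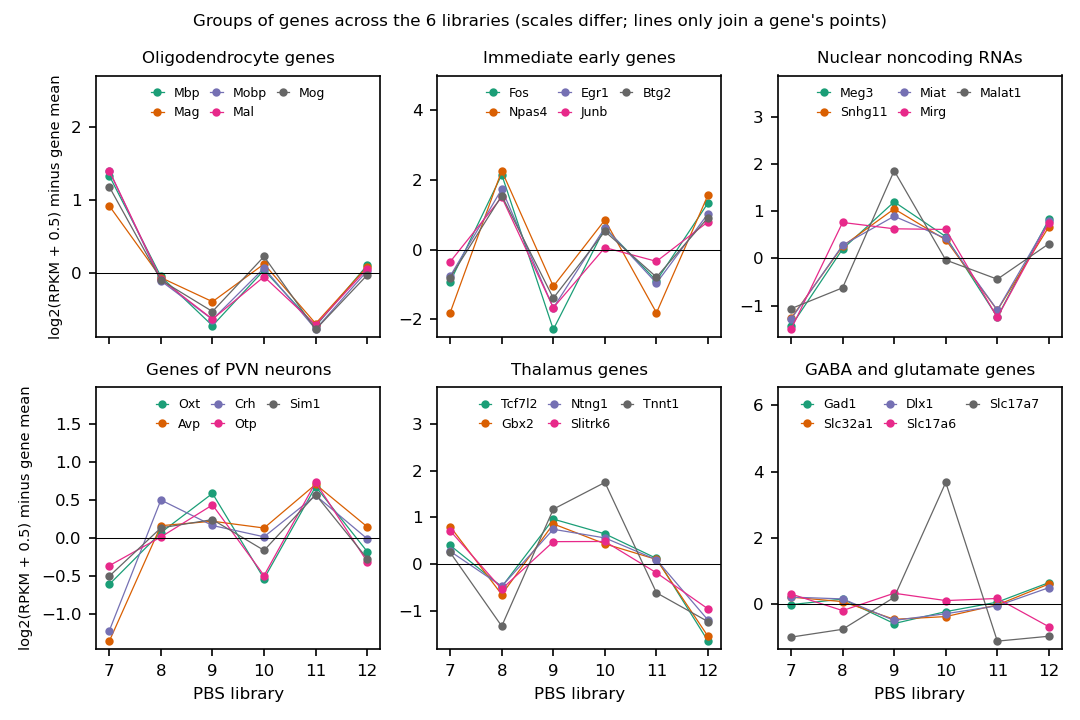
Deviation of log2(RPKM + 0.5) from each gene's mean over the 6 PBS libraries for 6 groups of 5 genes; vertical scales differ between panels and lines only join the points of a gene. Mbp and the other oligodendrocyte genes peak in PBS 7, Fos and Npas4 in PBS 8, Meg3 is low in PBS 7 and PBS 11, and Slc17a7 stands out in PBS 10.

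Some of these genes were also among those with the highest weights on the principal components. The first principal component of the 13333 genes held 43.2% of the variance between libraries and set PBS 7 (score -22.0) and PBS 11 (-17.3) apart from the other 4 (7.53 to 12.4). The highest weights on its positive side were mostly those of short microRNA and small nucleolar RNA rows. Npas4, Meg3 and Mirg, another imprinted noncoding RNA, were also among them. Scand1 and Pcsk1n were among the highest weights on its negative side. The second held 23.2% and set PBS 9 (score 21.3) against PBS 8 (-8.70) and PBS 12 (-9.41), with Fos, Egr1 and Junb weighted toward the latter 2 and Malat1 and Tcf7l2 toward PBS 9. On the third, with 15.3%, PBS 7 (11.9) and PBS 11 (-13.8) lay at opposite ends, and PBS 10 was at 7.34. Mbp and Slc17a7 were among the highest weights on its positive side and Avp, Crh and Oxt on its negative side. Slc17a7 itself was at 0.276 RPKM in PBS 7 and at 19.3 RPKM in PBS 10. No label gives a batch, litter, date or position of the punch for the single animals, so these could not be set beside the components.

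**Figure D5:**
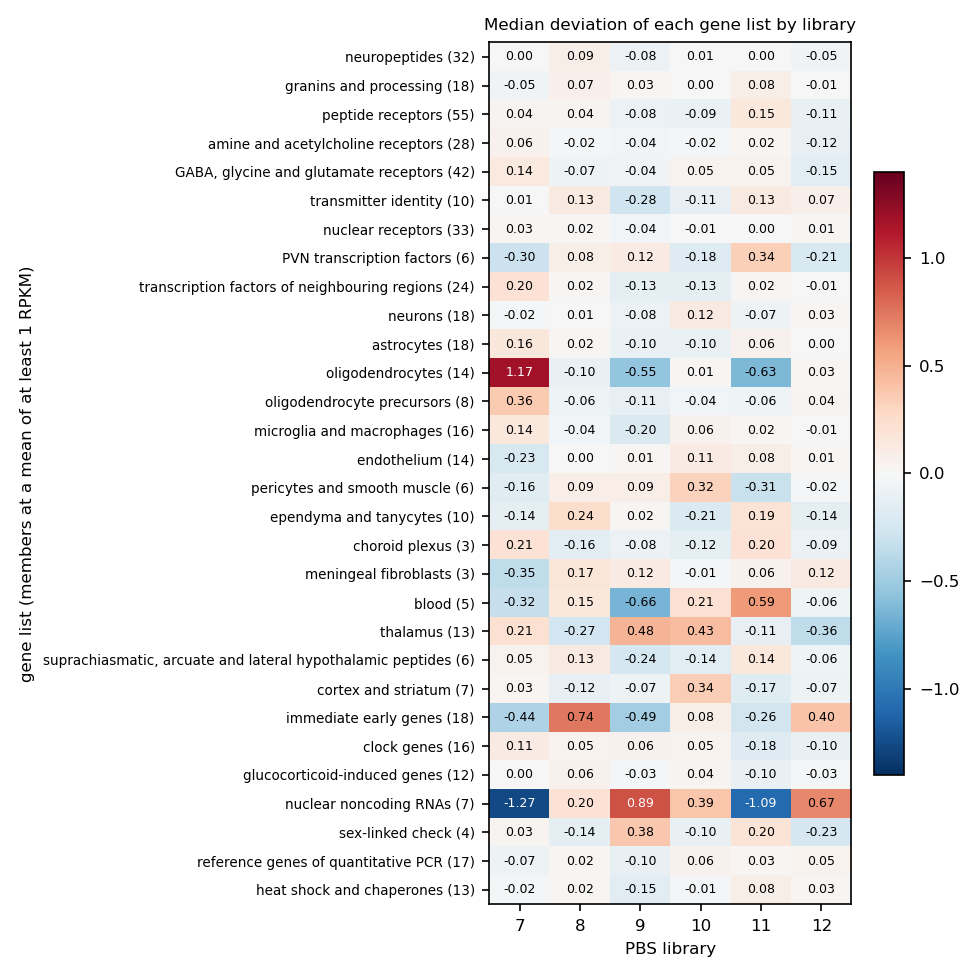
Median over the members of each gene list of log2(RPKM + 0.5) minus the gene's mean, by PBS library, for lists with at least 3 members at 1 RPKM or more (number in parentheses). Oligodendrocyte genes are highest in PBS 7 at 1.17, immediate early genes in PBS 8 at 0.74, and nuclear noncoding RNAs lowest in PBS 7 at -1.27, while neuronal, receptor and reference gene lists stay near 0.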

How the data were processed

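RPKM values, as the authors deposited them, fill a single table with a row for each of 30399 RefSeq transcripts and a column per animal. Per the labels' protocols the libraries were stranded, poly-A enriched, single-end and made from 250 ng of total RNA. The submitters' processing notes name build mm9 and edgeR, whose role they do not state. For the aligner, counter and scaling, the sources used here give no name. The 6 columns of the other group were not used.

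Depth was recovered from the steps between the lowest RPKM values of intronless olfactory receptor genes, taken as 1 read on either of 2 lanes. All 159 low values lay within 2% of whole steps, a weak check, since many of them also set the steps. A gene's value was its row of highest mean. Of 913 rows without a symbol, 868 were named by accession. Spread is the coefficient of variation at a mean of at least 1 RPKM. Gene pairs were compared on log2(RPKM + 0.5), a scale that shrinks differences between low genes, by a 2-sided exact sign-flip test over 64 sign patterns with Benjamini-Hochberg adjustment over 25 pairs. Transcript GC content came from GENCODE M21 by RefSeq accession (98.0% of genes). Pseudogene copies were found with blastn of BLAST+ 2.17.0. The scripts, in Python 3.11.15 with pandas 2.3.3 and scipy 1.17.1, were tested on simulated data. The members, gene lists and gene pairs were chosen with earlier results of these data known. The p-values of the pairs are therefore a description and not independent evidence of an order. Genes named are the 20 most abundant, the most and least variable, the leading members of each list, all pair members, the genes most like Oxt, Crh or Meg3 over libraries, reference and sex-linked genes, and others added after their values were seen, such as Scand1, Scd2, Neurod6 and Rpl8. Alternatives were other ways to join rows, scalings, filters, pseudocounts and libraries left out; leaving out short rows, and list counts with libraries left out, were added after the data were seen. Some genes of the lists and pairs are not reported here by name.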

Additional observations from a re-analysis of the deposited data

Results flagged for a closer look

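Among 153 genes named in the report, 25 had 1 library that stood apart from the other 5. The gap, as a share of the whole range, passed the 95% critical value of Dixon. Chance alone flags about 1 in 20 groups of values, and 6.56% of all genes at 1 RPKM or more were flagged, so single genes carry little weight. The causes were not tested.

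PBS 7 was the library apart, always as the highest, for the myelin genes Mbp (767 RPKM), Mobp (41.0 RPKM) and Mog (20.1 RPKM). It was also highest for Bcas1 (36.7 RPKM), Olig2 (9.69 RPKM) and Pdgfra (14.3 RPKM), all of the oligodendrocyte lineage. The others were Clic6 (7.19 RPKM), Fth1 (982 RPKM), Gal (49.1 RPKM), Htr2c (24.2 RPKM) and Trhr (7.87 RPKM), and Chat (0.530 RPKM), which was low throughout.

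PBS 10 was apart and highest for Slc17a7 (19.3 RPKM), Neurod6 (0.655 RPKM) and Npy (20.1 RPKM). Slc17a7 and Neurod6 are genes of cortical projection neurons. It was also highest for Mc3r (2.43 RPKM), Vip (0.833 RPKM) and Xist (0.448 RPKM). The Xist level was at most 0.0290 RPKM in each other library, and Vip was under 1 RPKM in all 6.

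PBS 9 was apart and highest for Malat1 (57.0 RPKM) and Lepr (0.712 RPKM). PBS 11 was highest for Esr2 (1.10 RPKM) and for the pituitary hormone genes Gh (0.380 RPKM) and Prl (0.182 RPKM), whose levels rest on few reads. PBS 12 was highest for Crhr2 (3.61 RPKM) and lowest for Npy1r (5.79 RPKM).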

How the results depend on the processing

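The number of genes at 1 RPKM or more was 12640 to 13532 under all alternatives, close to that with the settings of the report. With a gene's value as the sum over its rows, the 10 and 100 most abundant genes held 6.01% and 18.9% of the summed RPKM, and only 9 of the 20 most abundant genes were shared, since rows of one gene count shared reads repeatedly in a sum. Under every other alternative 19 or 20 of the 20 were shared. The number of genes at a coefficient of variation of at least 0.5, 179, was 73 over protein-coding rows alone, 93 without rows under 200 bases, 54 with a filter at 5 RPKM, 3734 with no filter, 113 without PBS 7 and PBS 11, and 131 to 203 with 1 library left out. With the SD of log2(RPKM + a pseudocount) as the measure, 33 (pseudocount 0.5), 33 (0.1) and 25 (1) of the 50 most variable genes were shared.

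Pseudocounts and ways to join rows left 20 of 25 pairs past the threshold. With 1 library left out the count was 0 to 0, and 0 without PBS 7 and PBS 11, because 5 or 4 libraries cannot give a p under 0.0625 or 0.125. Signs turned in pairs that did not pass the threshold: Slc32a1 against Slc17a6 was -0.014 (log2) with all libraries and 0.0049 without PBS 7, 0.14 without PBS 9, 0.082 without PBS 10, 0.025 without PBS 11, -0.27 without PBS 12 and 0.059 without PBS 7 and PBS 11, and Avpr1a against Oxtr was -0.0030 without PBS 11, -0.019 without both, and at most 0.16, without PBS 10. Slc1a2 against Slc1a3 turned from -0.97 to 0.42 with the sum over rows (adjusted exact p = 0.0391 under both).

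The share of variance on the first component, 43.2%, was 41.4 to 54.9% with 1 library left out, the highest without PBS 9, and 53.8% without PBS 7 and PBS 11. No paired analysis was possible because a single group was studied and no replicate number is shared within it. Genes near 1 RPKM rest on about 80 reads per library, so small differences between them were not detectable at this depth.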

Other observations

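Gene families outside the lists above were also measured. Of 98 respiratory chain and ATP synthase genes, 94 reached 1 RPKM with a median of 74.3 RPKM, and the family held 2.78 ± 0.17% (SD, n = 6) of the summed RPKM. The vacuolar proton pump, which acidifies secretory granules and lysosomes, had 20 of 26 genes at 1 RPKM or more and 11 at 100 RPKM or more. Tubulin genes had a median of 135.2 RPKM over 13 of 18 genes. Among the calmodulin genes, Calm2 was the highest at 504.5 RPKM. None of 1123 olfactory receptor genes reached a mean of 1 RPKM, and 995 were listed at 0 in all 6 libraries.

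Small RNA rows rest on few reads. Of 615 microRNA precursor rows 120 reached 1 RPKM, with a median of 12.4 reads per library. Their median coefficient of variation was 0.43, where counting reads alone would give a median of 0.28. The 58 of 114 small nucleolar RNA rows at that level had medians of 9.01 reads and 0.51, where counting alone would give 0.33. For cytosolic ribosomal protein genes the coefficient was 0.14 against 0.044 from counting alone.

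Among 6234 genes at a mean of at least 10 RPKM, 16 placed the 6 libraries in exactly the order of Crh. The 5 closest on the log2 scale included Pdyn, Reln, the reelin gene, at 9.67 to 17.8 RPKM, and Cntn6, a contactin gene, at 9.68 to 16.3 RPKM. Exactly the order of Oxt was found for 3 genes, among them Avp. For Meg3 it was 28 genes, among them Nxf1, which encodes the main messenger RNA export receptor, at 15.9 to 27.4 RPKM. With 6 points such matches are a description and carry no test.

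Scand1, a SCAN domain gene, was, like Pcsk1n, high in PBS 7, PBS 9 and PBS 11, at 14.1, 3.42, 15.02, 2.61, 11.3 and 5.38 RPKM in PBS 7 to PBS 12.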
